A study of Eptesicus fuscus and Canis lupus familiaris and Equus caballus with 4 samples.

Results

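The horse testis list holds 439 hairpin candidates, out of 1453 in the 3 lists of the series, and every row of the horse list was taken. Each is a genomic site covered by small RNA reads where the RNA could form a stem and loop, as a miRNA precursor does. The reads come from the small RNA fraction of total RNA extracted with TRIzol from snap-frozen testis of an adult horse (Equus caballus), sequenced as 50 bp single-end Illumina reads. The series has 4 samples in all, from testis of dog, horse and bat. The horse is represented by 1 library with no treatment and no replicate, so no test between groups was possible and no p-value is given. The labels give no breed and do not say which testis cells the RNA came from.

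A miRNA gene is transcribed as a longer RNA that folds into a hairpin. Drosha cuts the hairpin out in the nucleus, Dicer removes the loop in the cytoplasm, and the remaining duplex has a short 3′ overhang at each end. The strand nearer the 5′ end of the hairpin is called 5p and the other 3p, and usually more of 1 strand than of the other is retained in Argonaute as the mature miRNA. The seed, bases 2 to 8 of the mature sequence, pairs with target mRNAs. In mammals many testis miRNAs lie in fast-evolving clusters on chromosome X. Testis also holds piRNAs, which are longer than miRNAs, are made without a hairpin and often begin with U.

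The authors' program gives each candidate a number, a hairpin sequence, a mature sequence (taken as the small RNA product), the number of reads, the number of distinct read sequences, and a model score. Candidates are named here by the authors' number. No table of horse miRNAs was used here, so no candidate is given a miRNA name and the testis label was not checked against tissue miRNAs. The horse genome build is not given in the sources, and positions are as deposited, with both ends of the hairpin included. No gene annotation was used, so no position is described as exon, intron or UTR.

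The 16 mature sequences that follow are those with most reads at each autosomal locus of at least 100 reads, because these loci hold most of the autosomal reads. They are written 5′ to 3′ with T for U, in order of reads, and capitals mark the seed.

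Candidate_171: aGGACTGTccaacctgagaatggt
Candidate_2: cCTGAAATtctgatgcacctctc
Candidate_554: gCACGGGCtgcagcgccgacgcct
Candidate_550: cCTTCACGgtttcagggtcttgtac
Candidate_138: cAGATATTgcacggttgatctctt
Candidate_495: tGCGGGGCtagggctaacagcagt
Candidate_681: tCTTGGAAacagccactgtagaatg
Candidate_374: aCTCGGCGtggcgtcggtcgtggta
Candidate_451: tGTTGCAGttcgtcatcaacctgtg
Candidate_547: tCACTCCTctcctcccgtcttctt
Candidate_736: tGAGAGATcagaggcgcagagtgc
Candidate_149: aGGCAGTGtgttgttagctggctgc
Candidate_135: tGTATGTCaactgatccacagtc
Candidate_143: aACGAACCtggttaacctctttt
Candidate_319: cTGCTGCCgagagttgttcactgt
Candidate_284: cACCTTGCgctactcaggtctgct

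The 5 most read candidates on chromosome X are represented by 4 sequences, since Candidate_598 and Candidate_616 have an identical one and the next, Candidate_603, is tied with Candidate_617 and Candidate_651. They are shown because, with Candidate_171, they have the highest read counts of the list. Capitals again mark the seed.

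Candidate_640: cTACCCGGaaggtactgatcaccta
Candidate_634: tGAATGGCacctttctgagtagagt
Candidate_598: tAGTCGGTgccatctgggtagagc
Candidate_603: tACCCAGCaaggtactgatcgctta

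The list summed to 61054 reads, or 49454 when candidates with an identical mature sequence were counted once. The 5 most read candidates held 51.9% of the listed reads and the 50 most read held 95.8%. Autosomes carried 334 candidates at 306 loci with 17778 reads, where candidates that overlap on the same strand are 1 locus. Chromosome X carried 59 candidates at 40 loci with 42006 reads, and unplaced sequence carried 46 candidates at 45 loci with 1270 reads. The 61054 listed reads came to between 11.1% and 11.2% of the total in the authors' analysis. The deposited fractions place that total between 545429 and 549348. The listed sum counts the reads of an identical mature sequence at every copy, so the share with such sequences counted once is lower. Reads measure RNA from the whole tissue, so few cells with much of an RNA and many cells with little of it cannot be told apart.

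Few autosomal loci were strongly supported, and they held nearly all autosomal reads. Of 306 autosomal loci, 16 had a candidate with at least 100 reads. These 16 loci lay on 13 chromosomes and their 24 candidates summed to 15823 reads, which is 89.0% of the autosomal reads. The 3 most read autosomal candidates alone held 59.3%. Candidates with 1 read summed to 0.759% of the autosomal reads.

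The most read autosomal locus was on chromosome 22 and gave reads from both arms. Candidate_171 (chr22:49647210-49647332, minus strand) had 5727 reads of 56 distinct sequences from the 5p arm. Candidate_184, from the 3p arm of the same hairpin, had 1898 reads of 81 distinct sequences. All 5 models of the authors' program predicted each of them. Another candidate of this locus, Candidate_172 (chr22:49647262-49647398, minus strand), had 6 reads, and its mature sequence ends at the first base of that of Candidate_171. It counts as 3p in its own, shifted hairpin, and is among the 3p candidates below although it lies 5′ of Candidate_171. The 5p sequence thus had 3.02 times the reads of the 3p sequence but fewer distinct read sequences, and this was the only one of the 44 loci with both arms listed where the more read arm had fewer.

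Candidate_2 (chr20:34212987-34213077, plus strand) was the next, with 2922 reads of 23 distinct sequences from the 5p arm. It held 98.9% of the reads of the 10 candidates on chromosome 20, and no candidate was listed from its other arm. Candidate_554 (chr30:12533239-12533371, plus strand) had 993 reads of 55 distinct sequences from the 3p arm, and Candidate_558 on its 5p arm had 10. Chromosome 30 was thus, like chromosome 20, represented almost wholly by 1 locus, with 98.6% of its 1007 reads from Candidate_554.

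The next loci had between 253 and 644 reads. On chromosome 12, Candidate_550 (chr12:10370496-10370640, minus strand) had 644 reads from the 5p arm and Candidate_547 (chr12:30634767-30634899, minus strand) had 293 reads from the 3p arm. These are separate sites of 1 chromosome, and each was listed from 1 arm. Candidate_495 (chr11:54402144-54402236, plus strand) had 449 reads from the 5p arm. Candidate_451 (chr3:22431359-22431503, plus strand) had 300 reads from the 3p arm, in 4 distinct sequences, the fewest of the 16 loci. Candidate_736 (chr19:38814113-38814195, plus strand) had 253 reads from the 5p arm and Candidate_744 on its 3p arm had 5.

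Candidate_681 (chr15:28902994-28903098, minus strand) had 360 reads from the 5p arm, and was the only one of the 16 whose mature sequence recurred at another locus. Candidate_94, on unplaced sequence, had the identical mature sequence and was listed with the same 360 reads. The deposited counts do not say from which of the 2 copies the reads came.

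At chromosome 1 the arms were nearly even. Candidate_374 (chr1:26935090-26935214, plus strand) had 304 reads of 43 distinct sequences from the 3p arm, and Candidate_386, from the 5p arm of the same hairpin, had 296 reads of 19 distinct sequences. Their reads differed by a ratio of 1.03, the smallest ratio among the loci with both arms listed and at least 10 reads in sum. The scores were not alike, as 5 models predicted Candidate_374 and 4 predicted Candidate_386.

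Chromosome 24 held 3 of the 16 loci, close together and on the plus strand. Candidate_143 (chr24:42899649-42899789) had 138 reads, Candidate_138 (chr24:42908032-42908174) had 543 and Candidate_135 (chr24:42921540-42921650) had 162, all from the 3p arm. The neighbouring locus with Candidate_146 (chr24:42930413-42930553) had 41 reads from the 5p arm. No other autosome had more than 2 loci of at least 100 reads. Candidate_149 (chr21:17151814-17151938, plus strand) had 218 reads from the 5p arm and Candidate_164 on its 3p arm had 53, a ratio of 4.11.

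The lower end of the group was on chromosomes 28 and 8. Candidate_319 (chr28:45276597-45276709, minus strand) had 136 reads from the 3p arm, and Candidate_284 (chr8:6217988-6218130, minus strand) had 107, the fewest inside the threshold. Just outside it was Candidate_129 (chr23:28713907-28714041, minus strand) with 93 reads, and 6 autosomal loci had between 50 and 99.

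Features other than reads were tallied over these 16 loci, with values for all 334 autosomal candidates beside arm, both arms, length, first base and models. Listing on both arms and the number of models rose with reads in this list, so neither is independent of the threshold. The most read candidate lay on the 5p arm in 7 and on the 3p arm in 9, and 48.2% of autosomal candidates lay on 5p. A candidate was listed on each arm at 7 of the loci. Counted by candidates and not by loci, 14.7% of autosomal candidates came from loci with both arms listed. Off chromosome X that share of candidates was 9.33% at 1 read and 47.6% at 100 reads or more. The mature sequence was 24 or 25 bases long in 13. Over all autosomal candidates the median length was 24 bases, and 37.7% had 25. The mature sequence began with U in 6 of the loci, and in 57.8% of autosomal candidates. All 5 models predicted the most read candidate in 14 and 42.5% of autosomal candidates, and 4 models predicted Candidate_736 and Candidate_319. Off chromosome X the share with 5 models was 31.3% at 1 read and 85.7% at 100 reads or more. Between 68% and 91.3% of the bases of the mature sequence were paired in the predicted fold, with a median of 78.3%. Folding energy, in kcal/mol per 100 bases of hairpin, ranged from -58.0 at the most stable to -28.8 at the least, with a median of -35.7, and Candidate_554 and Candidate_547, at -73.5 and -77.2 kcal/mol per hairpin, had the lowest energies. For comparison, the median over the hairpins of all 439 candidates was -39.1 kcal/mol per 100 bases. Candidate_547 and Candidate_554, at -58.0 and -55.3, were well below that median, while the median of the 16 was above it.

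The candidates were spread over 30 assembled chromosomes, that is X and 29 autosomes. Of autosomes 1 to 31, none was listed on 27 and 31. Chromosome X had the most candidates, with 59, followed by unplaced sequence with 46, chromosome 7 with 28, chromosome 1 with 25 and chromosome 11 with 23. The number of candidates and the number of reads gave different orders. The 28 candidates of chromosome 7 summed to 209 reads and the most read had 32, whereas the 12 of chromosome 22 summed to 7645, which is 12.5% of all listed reads. On chromosome 14, 10 candidates summed to 30 reads and none had more than 9.

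**Figure D1:**
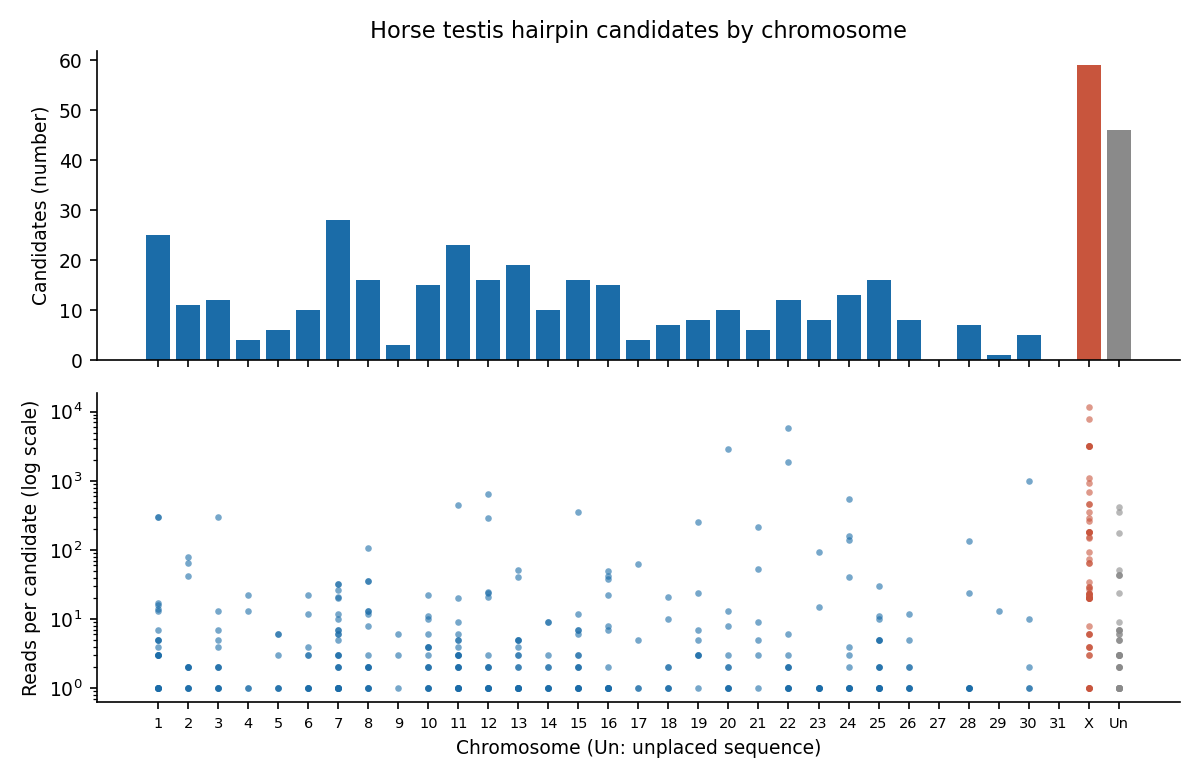
Hairpin candidates by chromosome: the upper panel gives the number of candidates and the lower panel the reads of each candidate on a log scale, 1 point per candidate. Chromosome X has the most candidates (59) and the highest read counts (up to 11811), while most autosomes have 1 or a few well-read candidates above many with under 10 reads.

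Support per candidate differed by place. The median was 2 reads on autosomes, 27 on chromosome X and 3 on unplaced sequence. At least 10 reads were found for 21.6% of autosomal candidates, 74.6% of those on X and 17.4% of the unplaced ones. Candidates with at least 10 reads lay on 26 autosomes, and candidates with at least 100 on 13. With reads of 1 library these figures describe that library.

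Chromosome X held 13.4% of the candidates (95% exact Clopper-Pearson interval 10.4 to 17.0) and 68.8% of the listed reads, or 62.8% when identical mature sequences were counted once. Intervals here and below cover counting error only and treat candidates as independent, which copies of a sequence are not. Candidate_640 (chrX:115867008-115867102) led with 11811 reads of 87 distinct sequences, followed by Candidate_634 (chrX:116755599-116755743) with 7855 of 49. Candidate_598 and Candidate_616 were each listed with 3160 reads, and Candidate_603, Candidate_617 and Candidate_651 with 3154. All 7 lay on the minus strand. Of the X candidates 55 lay on the minus strand and 4 on the plus strand, while 53.6% of autosomal candidates lay on the plus strand.

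Of the 59 X candidates, 33 had a mature sequence identical to that of another candidate, while the most read, Candidate_640 and Candidate_634, had none. Candidate_651, Candidate_603 and Candidate_617 had the same mature sequence at starts 6752 and 8645 bases apart. Candidate_644 and Candidate_661, on the other arm of the hairpins of Candidate_651 and Candidate_603, lay the same 6752 bases apart. That step also separated another pair of hairpins, with Candidate_624 and Candidate_611 on 1 arm and Candidate_609 and Candidate_620 on the other. Candidate_616 and Candidate_598 were 15461 bases apart, as were Candidate_648 and Candidate_642 on the other arm of the same hairpins. Within 10000 bases of another locus lay 32 of 40 X loci (80%, 64.4 to 90.9) and 29 of 306 autosomal loci (9.48%, 6.44 to 13.3).

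Sequences that differed by 1 base could have very different or similar read counts. Positions are counted from 1 at the 5′ end of the mature sequence, and the base of the more read candidate is given first. Candidate_598 and Candidate_596 differed over 23 bases by G6A, inside the seed, and had 3160 and 35 reads. Candidate_603 and Candidate_633 differed over 25 bases by G21A, outside the seed, and had 3154 and 75 reads. Candidate_635 and Candidate_638, by contrast, differed over 24 bases by C3T and had 465 and 354 reads. In all, 13 pairs of mature sequences with the same start differed by 1 or 2 bases, and in 11 both members lay on X. These candidates are shown here because they show which base differed, and were chosen after their values were seen.

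Candidate_598: tAGTCGGTgccatctgggtagagc
Candidate_596: tAGTCAGTgccatctgggtagag
Candidate_603: tACCCAGCaaggtactgatcgctta
Candidate_633: tACCCAGCaaggtactgatcactta
Candidate_635: tACCCAGTaaggtactgatcactt
Candidate_638: tATCCAGTaaggtactgatcactta

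The autosomes had 12 of the 19 clusters of loci within 10000 bases, and most had few reads. The largest autosomal one (chr1:69166402-69178995, minus strand) held 4 loci, Candidate_363, Candidate_379, Candidate_381 and Candidate_393, with an identical mature sequence listed with 3 reads at each. Their mature starts lay 4200, 4201 and 4048 bases apart. The best read autosomal clusters were the pairs of neighbouring loci on chromosome 24, with 687 and 204 reads. In the pair with 687 reads Candidate_138 and Candidate_143 supplied nearly all.

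Over the whole list, 87 candidates in 33 sets had a mature sequence identical to that of another candidate, and in all 33 sets the members carried equal reads. Of the 33 sets, 11 lay on X only and 22 had members elsewhere. Unplaced sequence took part in 14 sets, and 14 of the 46 unplaced candidates had a sequence that was also listed on a chromosome. Candidate_48 on unplaced sequence and Candidate_565 on chromosome 13, with 52 reads each, are such a pair.

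The 46 unplaced candidates had little support apart from 3, named after their values were seen. Candidate_56 had 417 reads of 33 distinct sequences from the 3p arm, Candidate_94 had the 360 reads it shares with Candidate_681, and Candidate_57 had 175 reads of 30 distinct sequences from the 5p arm with 9 from Candidate_59 on its 3p arm. The median GC content of hairpins was 62.4% on unplaced sequence, 58.1% on autosomes and 48.9% on X. It was 58.3% for candidates with 1 read and 50.5% for those with 100 or more, a class in which 22 of 43 lay on X, and off X that class had 55.9%.

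Shared seeds between different mature sequences were few. Only 13 seeds were shared, by 29 candidates (6.61%), and no seed was shared by more than 2 distinct mature sequences. The seed ACCCAGC joined the copies of Candidate_603 with Candidate_633 on X, with 9537 listed reads. GGACTGT joined Candidate_171 on chromosome 22 with Candidate_555 on chromosome 30, which had 1 read. GTATGTC joined Candidate_129 on chromosome 23 and Candidate_135 on chromosome 24, with 93 and 162 reads. ACTCCAA joined Candidate_636 and Candidate_658 on X with 96 reads in sum, and TTGGCAC joined Candidate_237 on chromosome 7 and Candidate_606 on X with 32. No seed was shared between members of the 16 strongly supported autosomal loci.

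Mature sequences were listed from the arms about equally often. The 5p arm held 211 candidates (48.1%, 43.3 to 52.9) and the 3p arm 228. The share on 5p was 45.5% at 1 read, 50.9% at 2 to 9 reads, 48.1% at 10 to 99 and 46.5% at 100 or more, with intervals that overlap. Reads were less even, as 60.2% of them lay on 5p candidates, with 66.2% on autosomes, 57.5% on X and 63.5% on unplaced sequence. These read shares rest on few candidates, since Candidate_171 and Candidate_2 on autosomes and Candidate_640 on X are all 5p. The arm was taken from the position of the mature sequence relative to the middle of the hairpin, and the predicted fold gave the same arm for 428 of 439 candidates, a different one for 10 and none for 1.

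At 44 loci a candidate was listed from each arm, 24 on autosomes, 19 on X and 1 on unplaced sequence. The hairpins of the leading ones are shown, with both listed mature sequences in capitals, the first 5p and the second 3p. They are 3 of the 5 most read such loci and the near-even locus on chromosome 1, chosen after its values were seen. Of the other 2, Candidate_598 has the mature sequence of Candidate_616, and Candidate_617 that of Candidate_603. Coordinates are those given above, and Candidate_616 lies at chrX:115855821-115855943 on the minus strand.

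Candidate_640: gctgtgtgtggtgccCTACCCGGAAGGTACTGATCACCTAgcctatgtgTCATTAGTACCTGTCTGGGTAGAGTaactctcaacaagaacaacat
Candidate_171: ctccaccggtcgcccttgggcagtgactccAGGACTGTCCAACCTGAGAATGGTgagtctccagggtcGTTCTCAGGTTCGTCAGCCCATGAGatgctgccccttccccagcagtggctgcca
Candidate_616: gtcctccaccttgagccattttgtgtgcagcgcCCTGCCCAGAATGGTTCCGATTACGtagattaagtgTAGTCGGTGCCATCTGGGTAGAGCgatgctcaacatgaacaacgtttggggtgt
Candidate_374: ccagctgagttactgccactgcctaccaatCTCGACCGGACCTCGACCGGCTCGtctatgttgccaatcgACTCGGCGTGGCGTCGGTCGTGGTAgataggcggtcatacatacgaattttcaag

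Arm preference at these loci ranged from nearly even to nearly exclusive. Candidate_640 had 11811 reads and Candidate_654 on its 3p arm had 1104, so 91.5% came from 5p. At the locus of Candidate_616 the order was the reverse, with 3160 reads from 3p and 4 from Candidate_648 on 5p, and the identical pair Candidate_598 and Candidate_642 was listed with the same counts. Candidate_617 had 3154 reads from 5p and Candidate_625 on 3p had 20. Because reads of identical sequences are listed at every copy, the arm ratios of X loci with copies are not measured separately at each locus.

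Over the 33 such loci with at least 10 reads in sum, the more read arm held a median of 95.1% of the reads, from 50.7% at Candidate_374 to 99.97% at Candidate_603 and Candidate_651. More reads lay on 5p at 22 of the 44 loci, on 3p at 19, and 3 were tied. On autosomes 8 loci had more on 5p and 13 on 3p, and on X 13 and 6, where loci that are copies of one another are each counted. Among autosomal loci Candidate_138 had 136 times the reads of Candidate_139 on its other arm, Candidate_554 had 99.3 times those of Candidate_558 and Candidate_736 had 50.6 times those of Candidate_744.

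**Figure D2:**
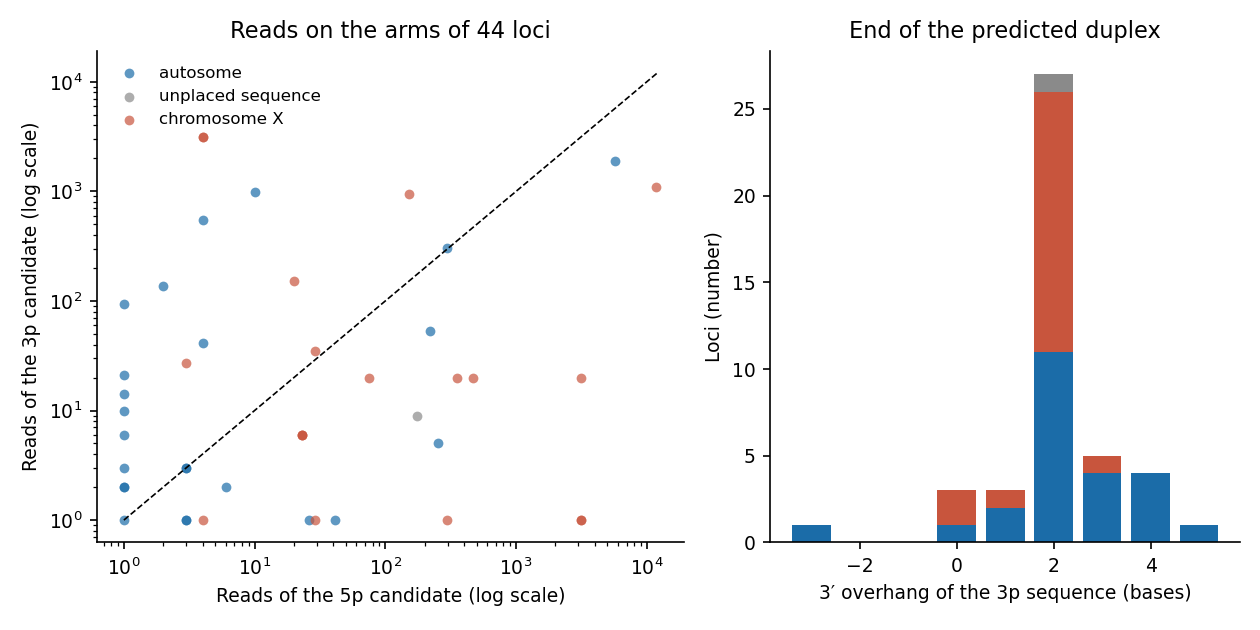
Left, reads of the 5p and the 3p candidate at each of the 44 loci with both arms listed, on log scales, with a dashed line of equal reads. Right, the number of loci by the 3′ overhang, in bases, of the 3p sequence beyond the base paired with the first base of the 5p sequence. The loci lie on both sides of the dashed line, Candidate_374 lies next to it, and the tallest bar is an overhang of 2 (27 loci).

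The geometry of the predicted duplex was measured at the same 44 loci. The hairpin held both mature sequences whole at each, and between 14 and 21 bases of 1 arm were paired with the other, with a median of 18. The 3p sequence extended 2 bases past the 5p start at 27 loci and 1 to 3 bases at 35. On X the overhang was 2 at 15 of 19 loci and lay between 0 and 3. On autosomes it was 2 at 11 of 24 and lay between -3 and 5. Some X loci are copies with identical mature sequences on both arms, such as those of Candidate_616 and Candidate_598. The X loci are therefore not independent of one another. At the loop end an overhang of 2 was found at 18 loci. Where both sequences were under 25 bases (25 loci), the overhang was 2 at the open end in 15, at the loop end in 14 and at both ends in 9.

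Candidates from loci with both arms listed were compared with the others on features the arms do not define, and the differences in first base and length were smaller at 10 reads or more. Of these 89 candidates 38.2% (28.1 to 49.1) began with U, against 64.6% (59.3 to 69.6) of the 350 others, and off chromosome X the shares were 23.5% and 64.1%. At 10 reads or more the shares were 51.1% of 45 (35.8 to 66.3) and 57.0% of 79 (45.3 to 68.1), and off X 26.3% of 19 (9.15 to 51.2) and 52.5% of 61 (39.3 to 65.4), and in each case the intervals overlap. A length of 25 bases was found for 22.5% (14.3 to 32.6) and 43.7% (38.4 to 49.1), but at 10 reads or more for 37.8% (23.8 to 53.5) and 48.1% (36.7 to 59.6), which overlap. The median GC content of the hairpin was 49.6% and 59.0%, and off X 51.8% and 59.3%. Support also moved with this, with a median of 10 reads for candidates with both arms listed and 2 for the others, and its part in the other differences was tested only by the split at 10 reads.

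No mature sequence was longer than 25 bases, and 173 candidates (39.4%) had that length. The share at 25 bases was 23.1% at 1 read, 51.6% at 2 to 9 reads, 45.7% at 10 to 99 and 41.9% at 100 or more. It was 46.0% on the 5p arm and 33.3% on the 3p arm. Sequences of 25 bases began with U in 74.6% (67.4 to 80.9), those of 24 in 54.0% (40.9 to 66.6), those of 23 in 63.0% and those of 22 in 35.8%. The share thus did not rise steadily with length. Whether the 25-base sequences continue in longer reads cannot be read from the list. The hairpin ends are windows of the prediction and not measured ends of an RNA, since in 438 of 439 hairpins the shorter flank beside the mature sequence was a multiple of 5 bases.

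**Figure D3:**
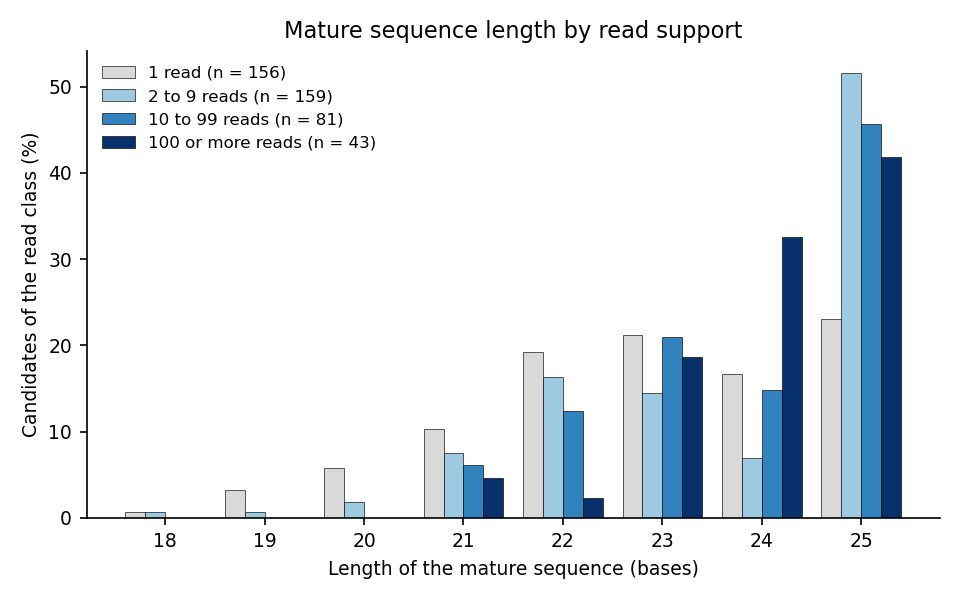
Share of candidates, in percent of each read class, at each length of the mature sequence in bases. Every read class has its highest bar at 25 bases. That bar holds 23.1% of candidates with 1 read, which spread over 18 to 25 bases with 36 at 25 and 33 at 23. It holds 51.6% at 2 to 9 reads, 45.7% at 10 to 99 and 41.9% at 100 or more.

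The number of distinct read sequences, which counts variants in start, end or bases among the reads of a candidate, rose with the number of reads. The median was 2 per candidate, and 8 on chromosome X. A single distinct sequence was found for 183 candidates (41.7%, 37.0 to 46.5), of which 156 had only 1 read, and the other 27 had at most 5 reads. On autosomes this share was 48.2% and on X 10.2%. At 211 candidates, those with 1 read included, every read had a different sequence. Across the 439 candidates reads and distinct sequences had a Spearman correlation of 0.939 and, on log10 values, a Pearson correlation of 0.935, which is a description of 1 library in which the number of reads bounds the number of distinct sequences. Among the 124 candidates with at least 10 reads the values were 0.733 and 0.803.

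Reads per distinct sequence separated candidates of like support. The median was 1 at 1 read, 1.5 at 2 to 9 reads, 3.43 at 10 to 99 and 19.8 at 100 or more. Among the candidates with at least 50 reads the highest were Candidate_634 with 160.3, Candidate_640 with 136, Candidate_2 with 127, Candidate_171 with 102 and Candidate_451 with 75. The lowest were Candidate_718 on chromosome 16 and Candidate_633 on X with 3.13 each, Candidate_48 and its copy Candidate_565 with 3.25, and Candidate_129 with 3.32. Candidate_374 and Candidate_451 show the range at equal support, as 304 reads fell into 43 sequences in the first and 300 into 4 in the second. The 2 arms of the chromosome 22 hairpin also differed, with 102 reads per distinct sequence for Candidate_171 and 23.4 for Candidate_184.

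**Figure D4:**
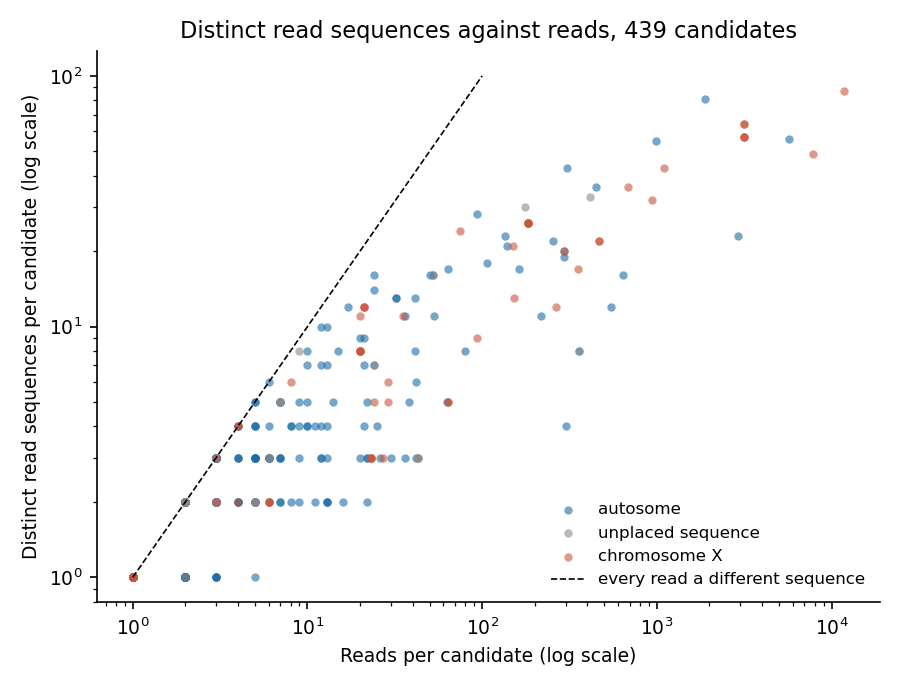
Distinct read sequences against reads for each of the 439 candidates, on log scales, coloured by place, with a dashed line where every read is a different sequence. The points leave the dashed line as reads increase, and Candidate_451 (300 reads, 4 distinct sequences) and Candidate_2 (2922 reads, 23) lie lowest at their number of reads.

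The model score is the number of the 5 models of the authors' program that predicted a candidate, and the list holds only scores of 4 and 5. All 5 models predicted 207 candidates (47.2%, 42.4 to 51.9) and 4 models the other 232. The share with 5 models was 32.7% at 1 read (25.4 to 40.7), 41.5% at 2 to 9 reads (33.8 to 49.6), 63.0% at 10 to 99 (51.5 to 73.4) and 90.7% at 100 or more (77.9 to 97.4). Off chromosome X the shares were 31.3%, 40%, 55.9% and 85.7% in the same order, and with identical sequences once 31.5%, 42.3%, 64.6% and 91.2%. The score was thus higher at higher support with and without X. The sources do not say whether read counts enter the models.

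**Figure D5:**
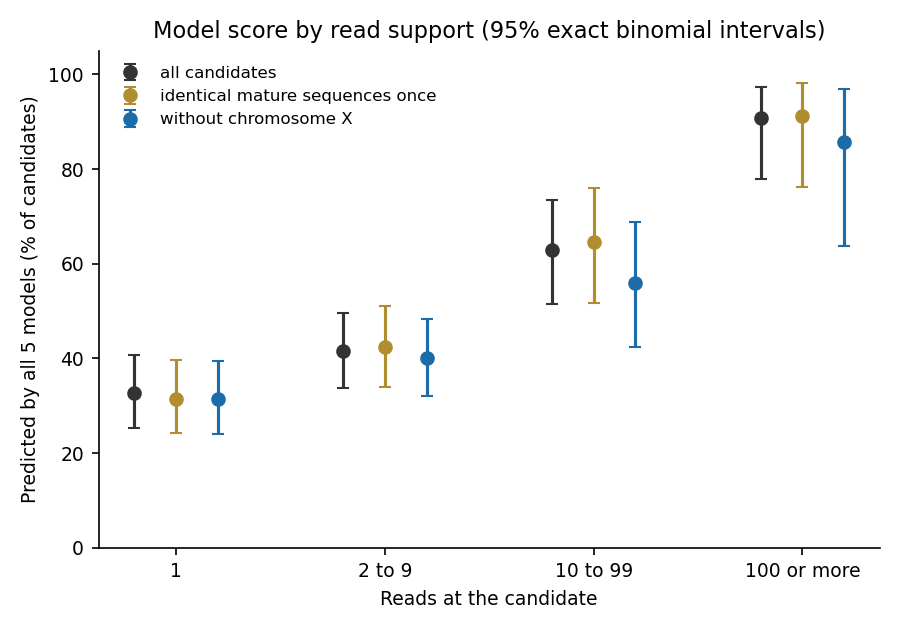
Share of candidates predicted by all 5 models, in percent, in 4 classes of reads, with 95% exact binomial intervals, for all candidates, with identical mature sequences once and without chromosome X. The share is 32.7% at 1 read and 90.7% at 100 or more for all candidates, and the order of the 4 classes is the same in the 3 sets.

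A high score was not needed for many reads, nor many reads for a high score. Candidate_645 on X was predicted by 4 models with 465 reads, Candidate_386 with 296, Candidate_736 with 253 and Candidate_319 with 136, followed by Candidate_416 on chromosome 2 and Candidate_632 on X with 64 each. Of the 156 candidates with 1 read, 51 had 5 models. Candidate_744, with 5 reads, had 5 models while Candidate_736 on the other arm of the locus had 4. In 7 of the 33 sets of identical mature sequences the copies had different scores, such as Candidate_635 with 5 and Candidate_645 with 4 at the same 465 reads, or Candidate_594 with 5 and Candidate_632 with 4 at the same 64.

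The score also varied with place. All 5 models predicted 83.1% of X candidates (71.0 to 91.6), 42.5% of autosomal ones (37.2 to 48.0) and 34.8% of unplaced ones (21.4 to 50.2). Candidates of loci with both arms listed had 5 models in 76.4% (66.2 to 84.8) and the others in 39.7% (34.6 to 45.1). At 10 reads or more these shares were 88.9% (75.9 to 96.3) and 63.3% (51.7 to 73.9). Off X, at any number of reads, they were 66.7% (52.1 to 79.2) and 37.7% (32.4 to 43.2), and in neither case do the intervals overlap. Off X and at 10 reads or more they were 78.9% of 19 (54.4 to 93.9) and 59.02% of 61 (45.7 to 71.4), with overlapping intervals. On the 3p arm the share was 51.3% (44.6 to 58.0) and on the 5p arm 42.7% (35.9 to 49.6), and these intervals overlap. Folding energy hardly separated the scores, with medians of -38.7 kcal/mol per 100 bases at 5 models and -39.5 at 4, and the Spearman correlation of energy with reads over the 439 candidates was 0.03.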

How the data were processed

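The authors made the horse list with miRanalyzer, a program that searches small RNA reads for miRNA hairpins, as the deposited notes on the columns state. The deposited counts are raw, 1 column of distinct read sequences and 1 of summed reads. The deposited score is the number of models, and the deposited fraction gives a candidate's reads relative to every read analysed by the authors, to 3 decimals. The submitters' processing notes name a dog build for the horse sample, so the build behind the horse positions is not given in those sources, and neither are the trimming, the mapping settings or any removal of known miRNAs.

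All 439 candidates were used with no filter. Candidates overlapping on the same strand were merged into loci, the arm was set by the midpoint of the hairpin, and hairpins were folded with RNAfold 2.7.2. Other steps used pandas 2.3.3, scipy 1.17.1, numpy 2.4.6 and matplotlib 3.10.9 under Python 3.11.15, and arms, loci, clusters and intervals were tested on simulated data. The list of this 1 library summed to 61054 reads, with identical sequences counted at every copy. That sum is not the depth of the library, as the total in the authors' analysis lies between 545429 and 549348. Shares carry exact Clopper-Pearson 95% intervals. Reads carry no molecular identifiers stated in the sources, so intervals cover counting error only.

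The members and lists were chosen with earlier results of these data known. The rule named the 15 autosomal loci of at least 100 reads with most reads, and the remaining such locus was named as well. By the same rule the 5 most read X candidates and the 5 most read loci with both arms were named. So were the 5 most read candidates of 4 models and the leading chromosomes. The rule also took the 5 highest and 5 lowest in reads per distinct sequence at 50 reads or more. For seeds it was the 5 shared by most sequences, but all shared seeds tied at 2 and the most read were taken. Candidates named beyond these were chosen after their values were seen. Matching to known miRNAs was part of that rule and was not run. Alternatives were identical sequences once, at least 10 reads, all 5 models, no X, merged loci and other thresholds for reads, seeds and clusters. Identical sequences once for the model split and for loci with both arms were added after seeing the data.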

Additional observations from a re-analysis of the deposited data

How the results depend on the processing

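Of 60 alternatives run on 18 results, 35 left the value inside its interval or, for numbers of loci and chromosomes, within 1.5 times, and 25 moved it. None reversed a direction. Counting identical mature sequences once gave an X share of 9.61% of candidates and 62.8% of reads, and a 5p share of 59.1% of reads. Keeping only the most read candidate of each locus gave X shares of 10.2% of loci and 70.8% of reads. With at least 10 reads, X held 35.5% of candidates, the median of distinct sequences was 9, a single distinct sequence was found for 0 of 124 candidates (up to 2.93%), all 5 models predicted 72.6%, the median was 39.5 reads and the median energy was -37.9 kcal/mol per 100 bases. With all 5 models required, X held 23.7%, the median of distinct sequences was 3, a single one was found for 28.5%, the median was 6 reads and 65.7% of mature sequences had 20 to 24 bases. Without chromosome X, the 5p share of reads was 66.1%, a single distinct sequence was found for 46.6%, all 5 models predicted 41.6%, and 63.8% at 10 reads or more. With the split at 3 or 100 reads in place of 10, the share with 5 models above it was 59.5% or 90.7%. A seed of bases 2 to 7 was shared for 17.3% of candidates. Of all loci, X and unplaced ones included, 11.0% were clustered within 3000 bases and 24.3% within 50000. The shares within 10000 bases given above are for X and autosomes separately, so they do not compare directly with these. A minimum of reads or models changes which candidates are counted, by construction.

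Matches to reference miRNAs, with their alternatives (10 reads, 5 models, identical sequence, identical seed), were not run because no table of horse miRNAs was used. No paired analysis was possible because the horse has 1 library and the labels carry no replicate numbers. With 1 library, nothing here separates this animal or this preparation from the species, and the 156 candidates with 1 read rest on that read alone.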
